A study of Homo sapiens with 9 samples.

Results

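The extracellular signal-regulated kinase (ERK) pathway restrains itself by switching on genes that encode its own inhibitors, and these genes, with a few transcription factors that respond to the same signal, are widely used as a transcript readout of pathway output. The 10 genes described here are DUSP4, DUSP5, DUSP6, SPRY2, SPRY4, SPRED1, ETV4, ETV5, PHLDA1 and EGR1, chosen by name among the 58395 genes of the deposited count files. All 10 matched 1 Ensembl identifier each and passed the filter on low counts, which left 16575 genes. RNA was measured by sequencing in the MDA-MB-231 line, grown from a human breast cancer without hormone receptors. There were 3 groups of 3 libraries, collected 96 h after reverse transfection. SKP2-1 cells received the siRNA labelled SKP2 siRNA_1, SKP2-2 cells received SKP2 siRNA_2, and NC cells received a nontargeting control siRNA. The cells are 1 cultured line in all groups, and the labels do not say that replicates are separate cultures, so p-values measure only the spread between these libraries, which may be technical.

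Growth factor receptors activate RAS through adaptors and exchange factors, and RAS then activates the kinases RAF, MEK and ERK in turn. Dual-specificity phosphatases (DUSPs) remove the phosphates that activate MAP kinases, and Sprouty (SPRY) and SPRED proteins act higher up, at the level of receptors, RAS and RAF. ETV4, ETV5 and EGR1 are transcription factors whose genes respond to ERK, and PHLDA1 is a pleckstrin homology-like protein whose transcript follows ERK activity.

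Each library held between 35.5 and 49.9 M counts in genes. SKP2, the F-box protein named as the target in the labels, was 3.31 to 3.91 CPM (counts per M gene counts, normalized for library composition) in SKP2-1 cells and 5.69 to 6.11 CPM in SKP2-2 cells, against 57.5 to 64.9 CPM in NC cells. SLC39A7 (ZIP7), the target named in the design text, was 342 to 344 CPM in SKP2-1 cells, 358 to 376 CPM in SKP2-2 cells and 335 to 352 CPM in NC cells, and passed the test in neither comparison with NC (adjusted p = 0.936 and 0.0868), although the SKP2-2 value passed when scaled by library size only (log2 0.13, adjusted p = 0.0138). On the third principal component, with 11.2% of the variance, NC replicate 1 (-26.7) lay apart from NC replicates 2 and 3 (7.2 and 18.5). The SKP2-2 libraries were spread along it, with replicate 2 (2.7) between replicate 1 (18.9) and replicate 3 (-13). SKP2-2 replicate 3 therefore did not stand apart alone. Results that change without NC replicate 1 and SKP2-2 replicate 3 are given with them and without them. SKP2-1 replicates were closer to each other than those of the other groups, with a mean chi-square per gene of 2.44 to 2.53 between pairs, against 8.59 to 26.1 in SKP2-2 cells and 7.71 to 48.9 in NC cells (1 is sampling noise). The groups shared the estimate of spread for each gene in the fit, so SEs and p-values do not reflect this difference between groups. All 7 listed mesenchymal markers of the line, such as VIM and CD44, were present. The summed level of 5 endothelial markers was 15.6 to 17.4 CPM in SKP2-1 cells, 7.86 to 9.36 CPM in SKP2-2 cells and 6.92 to 7.96 CPM in NC cells, nearly all of it PECAM1 and KDR, while CDH5 and VWF averaged at most 0.187 CPM in any group and CLDN5 was at 0. The 7 immune markers summed to 3.61 to 3.79 CPM in SKP2-1 cells, 3.35 to 3.75 CPM in SKP2-2 cells and 1.52 to 2.2 CPM in NC cells, with MS4A1 at 0 and CD3E at no more than 0.0236 CPM in any library. The 8 hormone receptor and luminal markers summed to 383.9 to 406.8 CPM in SKP2-1 cells, 384 to 410.6 CPM in SKP2-2 cells and 291.6 to 311.1 CPM in NC cells, mostly KRT19 and ERBB2, with ESR1 averaging at most 0.224 CPM and PGR at most 0.233 CPM in any group. The part of these markers in the results below was not tested, and in bulk RNA fewer cells of a type and less RNA per cell cannot be told apart.

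Per exon length (all exons of a gene joined, GENCODE 29), the feedback genes covered a wide range of levels. In NC cells DUSP4 was highest, at 96.1 ± 0.427 CPM per kilobase of exon (SD, n = 3), followed by PHLDA1 (70.4 ± 6.27) and DUSP6 (50.9 ± 0.624). DUSP5 (30.9 ± 2.58) and SPRY2 (27.6 ± 0.982) came next, and their NC libraries overlapped. Below them stood SPRY4 (21 ± 0.328), ETV4 (18.3 ± 0.578), ETV5 (15.4 ± 1.11) and SPRED1 (13 ± 0.932). EGR1 was lowest, at 3.46 ± 0.303 CPM per kilobase. The order differed with each siRNA. In SKP2-1 cells PHLDA1 led with 124.8 ± 0.677, and DUSP4 and DUSP6 overlapped at 89.5 ± 0.711 and 89.3 ± 1.49. In SKP2-2 cells DUSP4 led with 91.5 ± 6.16, and DUSP5 had moved to the second place with 71.4 ± 2.9, overlapping PHLDA1 at 69.2 ± 7.42.

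**Figure D1:**
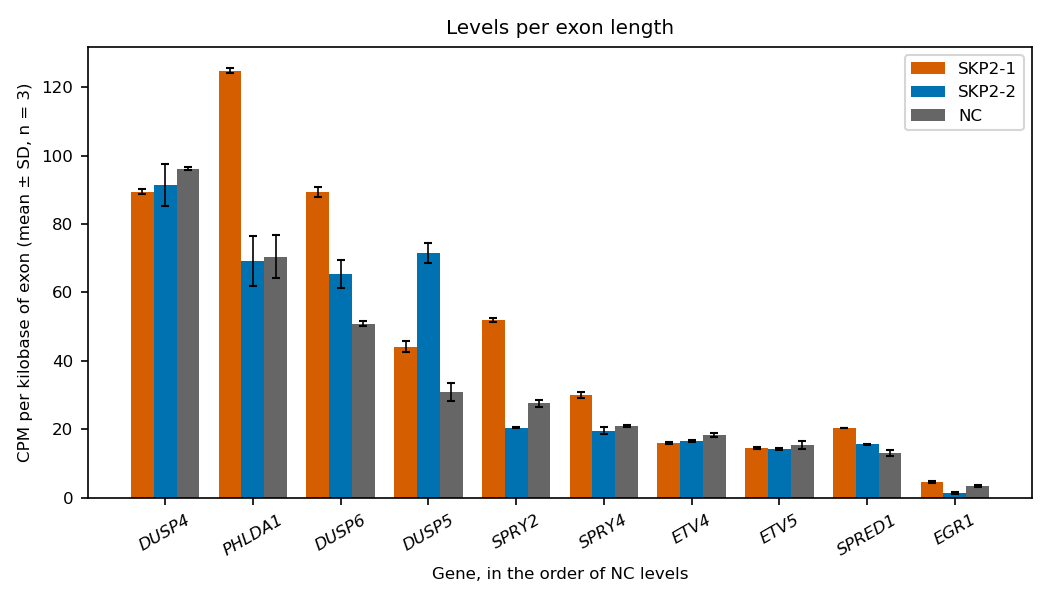
Level of each gene in CPM per kilobase of exon (vertical axis), with genes in the order of their NC levels; bars are means and lines SDs of 3 libraries for SKP2-1, SKP2-2 and NC cells. PHLDA1 was highest in SKP2-1 cells (124.8), DUSP4 was highest in SKP2-2 cells (91.5) and NC cells (96.1), and EGR1 was lowest in all 3 groups.

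With SKP2-1, most of the feedback inhibitors rose. Of the 10 genes, 7 rose, 1 fell and 2 did not pass the test (edgeR, adjusted p at 0.05), and their median log2 fold change was 0.51, beside 0.02 over all genes tested. The threshold was passed by 45.5% of all genes in this comparison, 25% higher and 20.5% lower. SPRY2 (log2 fold change 0.92), PHLDA1 (0.83), DUSP6 (0.81) and SPRED1 (0.64) had the largest rises, all under 2-fold. The count of fallen genes was 2 without NC replicate 1, 3 without SKP2-2 replicate 1 and 3 without both NC replicate 1 and SKP2-2 replicate 3, with ETV5 added in each and DUSP4 in the last 2.

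With SKP2-2, the same 10 genes split. DUSP5 (log2 fold change 1.21), DUSP6 (0.36) and SPRED1 (0.26) rose, while EGR1 (-1.27), SPRY2 (-0.44) and ETV4 (-0.14) fell, and 4 did not pass. Their median was -0.09, beside 0.03 over all genes, and 49.4% of all genes passed, 25.2% higher and 24.1% lower. Both siRNAs are set against the same NC libraries, so these comparisons are not independent of each other. Without both NC replicate 1 and SKP2-2 replicate 3, 6 of the 10 genes fell, with DUSP4 (-0.12, adjusted p = 0.0151), SPRY4 (-0.14, adjusted p = 0.00767) and ETV5 (-0.16, adjusted p = 0.00383) added.

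Set directly against each other, SKP2-2 cells were lower than SKP2-1 cells in 6 of the 10 genes and higher in DUSP5, and DUSP4, ETV4 and ETV5 did not pass. The median log2 difference was -0.42, beside 0.03 over all genes, and 50.5% of all genes passed, 25.2% higher and 25.3% lower. EGR1 (-1.69) and SPRY2 (-1.35) differed most.

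**Figure D2:**
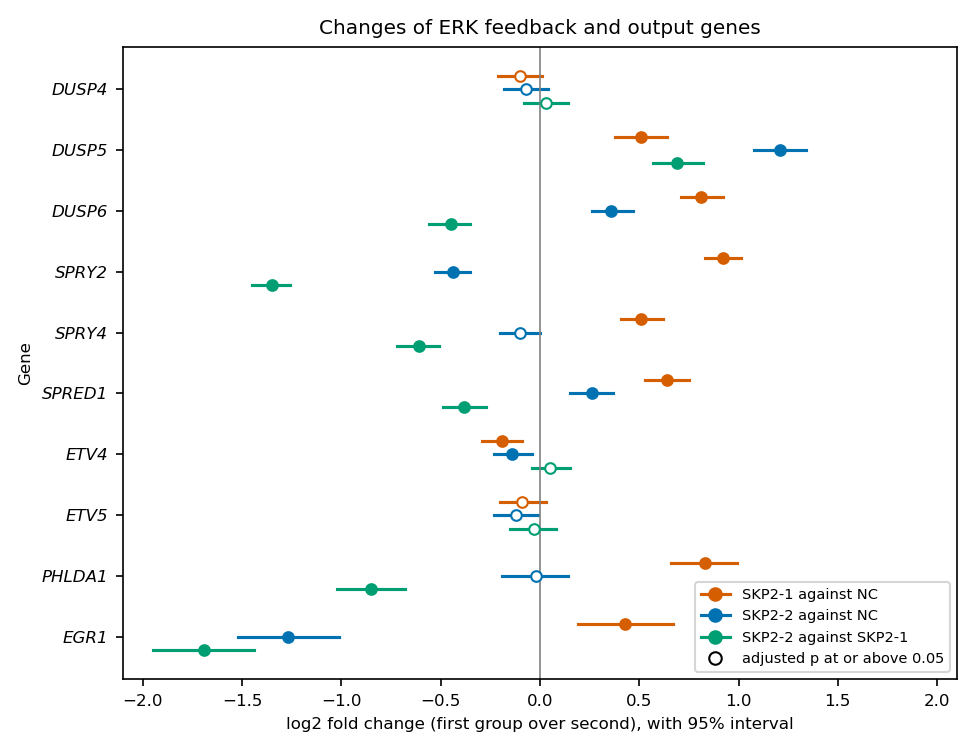
Log2 fold change of each gene (horizontal axis, first group over second) with its 95% interval for SKP2-1 against NC, SKP2-2 against NC and SKP2-2 against SKP2-1; open points did not pass at an adjusted p of 0.05. SPRY2 and EGR1 lie right of zero with SKP2-1 and left of zero with SKP2-2, DUSP5 and DUSP6 lie right of zero with both, and DUSP4 and ETV5 have no filled point.

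Among the phosphatases, DUSP6 is a cytoplasmic enzyme with a strong preference for ERK. DUSP6 (ENSG00000139318, chromosome 12, 89347232 to 89353271 on GRCh38) was 410.8, 408.9 and 421.7 CPM in SKP2-1 cells, 287.4, 296.8 and 323.8 CPM in SKP2-2 cells, and 237.9, 236.8 and 232.4 CPM in NC cells. No library of 1 group overlapped another group, with SKP2-1 highest and NC lowest. It was 1.76-fold higher in SKP2-1 cells than in NC cells (SE of log2 0.048, adjusted p = 2.12e-08) and 1.28-fold higher in SKP2-2 cells (adjusted p = 3.49e-05), and SKP2-2 cells were 1.37 times lower than SKP2-1 cells (adjusted p = 4.43e-06).

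DUSP5, a nuclear phosphatase that is specific for ERK, showed the other order. DUSP5 (ENSG00000138166, chromosome 10, 110497838 to 110511544) was 110.9, 115.9 and 119.4 CPM in SKP2-1 cells, 195.3, 184.1 and 180.8 CPM in SKP2-2 cells, and 73.7, 81.7 and 87.1 CPM in NC cells. Here SKP2-2 was the highest group, again with no overlap. It rose 1.43-fold with SKP2-1 (log2 0.51, SE 0.06, adjusted p = 1.18e-05) and 2.31-fold with SKP2-2 (1.21, SE 0.06, adjusted p = 3.92e-09). SKP2-2 cells were 1.62-fold higher than SKP2-1 cells (adjusted p = 5.42e-07), so DUSP5 was the 1 gene of the 10 that passed the test as higher with the second siRNA than with the first.

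DUSP4, a nuclear phosphatase that acts on ERK and on JNK, differed little. DUSP4 (ENSG00000120875) was 646.9, 655.7 and 646.6 CPM in SKP2-1 cells, 621.8, 659.7 and 710.9 CPM in SKP2-2 cells, and 701, 697.3 and 694.8 CPM in NC cells. The SKP2-1 libraries all lay below the NC libraries, while the SKP2-2 libraries spread across both. The log2 fold change was -0.10 with SKP2-1 (95% interval -0.21 to 0.01, adjusted p = 0.114) and -0.07 with SKP2-2 (-0.18 to 0.04, adjusted p = 0.264), and the difference between the siRNAs was 0.03 (-0.08 to 0.14, adjusted p = 0.625). The SKP2-1 value passed the test without SKP2-2 replicate 1 (-0.14, adjusted p = 0.0128), within 0.0128 to 0.239 when single libraries were dropped. It also passed with RLE scaling (-0.12, adjusted p = 0.0466), DESeq2 (-0.12, 0.0403), a filter of 1 CPM in 3 libraries (-0.14, 0.0238) and the 2 groups alone (-0.17, 0.00567).

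**Figure D3:**
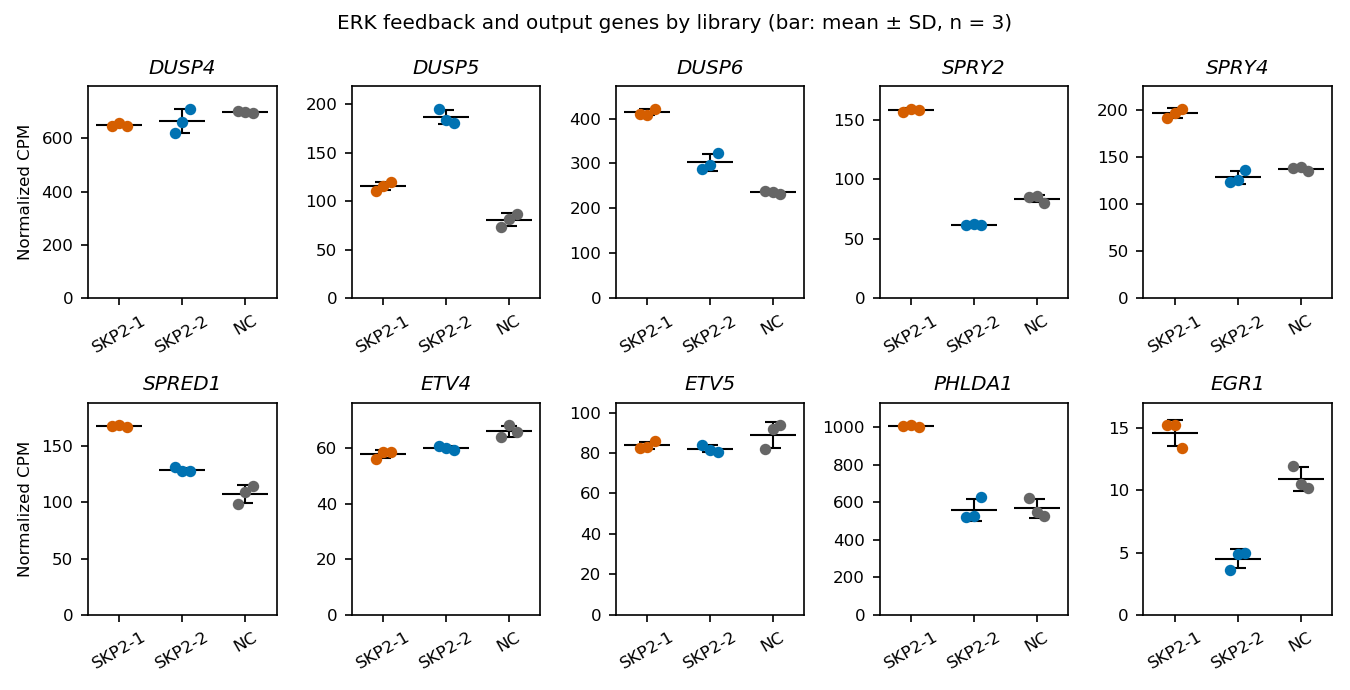
Normalized CPM (vertical axis, from zero) of each gene in every library of SKP2-1, SKP2-2 and NC cells; points are libraries, and bars mark the mean ± SD of 3. SPRY2 (means of 158.1, 61.8 and 83.8 CPM), SPRY4 and PHLDA1 were highest in SKP2-1 cells, EGR1 was low in SKP2-2 cells (4.5 CPM), and DUSP4, ETV4 and ETV5 differed little between groups.

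Sprouty proteins are inhibitors that block the step from receptor to RAF. SPRY2 (ENSG00000136158, chromosome 13, 80335976 to 80340951) was 156.4, 159.4 and 158.5 CPM in SKP2-1 cells, 61.8, 62.4 and 61.3 CPM in SKP2-2 cells, and 85, 86 and 80.4 CPM in NC cells. The SKP2-1 libraries lay above NC and the SKP2-2 libraries below it, with no overlap between any of the groups. SPRY2 rose 1.89-fold with SKP2-1 (log2 0.92, SE 0.041, adjusted p = 1.83e-09) and was 1.36 times lower with SKP2-2 (-0.44, SE 0.042, adjusted p = 1.51e-06). Set against SKP2-1 cells, SPRY2 was 2.56 times lower in SKP2-2 cells (adjusted p = 4.99e-11), a difference larger in size than that of 97% of genes tested, or equal to it.

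SPRY4 followed SPRY2 with SKP2-1. SPRY4 (ENSG00000187678, chromosome 5, 142310427 to 142326455) was 191.4, 197.3 and 201.4 CPM in SKP2-1 cells, 123.2, 125.5 and 136.8 CPM in SKP2-2 cells, and 138.8, 139.5 and 135.4 CPM in NC cells. It rose 1.43-fold with SKP2-1 (log2 0.51, SE 0.047, adjusted p = 1.38e-06). The SKP2-2 and NC libraries overlapped, with a log2 fold change of -0.10 (95% interval -0.20 to 0.00, adjusted p = 0.0942), which passed without SKP2-2 replicate 3 (-0.15, adjusted p = 0.023), within 0.023 to 0.253 when single libraries were dropped. This value also passed with RLE scaling (-0.13, adjusted p = 0.0308), DESeq2 (-0.13, 0.0486) and a filter of 1 CPM in 3 libraries (-0.14, 0.0246). SKP2-2 cells were 1.53 times lower than SKP2-1 cells (adjusted p = 2.02e-07).

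SPRED1 binds the RAS GTPase activator neurofibromin and brings it to the membrane. SPRED1 (ENSG00000166068, chromosome 15, 38252326 to 38357249) was 167.6, 168.4 and 167.2 CPM in SKP2-1 cells, 130.9, 128.2 and 127.5 CPM in SKP2-2 cells, and 98.9, 108.9 and 114.1 CPM in NC cells. The 3 groups did not overlap, and NC replicate 1 was the lowest library. SPRED1 was 1.56-fold higher with SKP2-1 (log2 0.64, SE 0.05, adjusted p = 2.84e-07) and 1.20-fold higher with SKP2-2 (0.26, SE 0.05, adjusted p = 0.000682), and SKP2-2 cells were 1.3 times lower than SKP2-1 cells (adjusted p = 3.05e-05).

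The ETS factors ETV4 and ETV5, close relatives of the PEA3 group, moved little. ETV4 was 56.1, 58.7 and 58.7 CPM in SKP2-1 cells, 60.9, 59.9 and 59.3 CPM in SKP2-2 cells, and 64.1, 68.2 and 65.7 CPM in NC cells. All knockdown libraries lay below all NC libraries. ETV4 fell by 0.19 on the log2 scale with SKP2-1 (SE 0.045, adjusted p = 0.00333) and by 0.14 with SKP2-2 (SE 0.045, adjusted p = 0.0209). With SKP2-2, ETV4 no longer passed when NC replicate 2 (-0.11, adjusted p = 0.1), SKP2-2 replicate 2 (-0.14, adjusted p = 0.0619) or SKP2-2 replicate 3 (-0.13, adjusted p = 0.0667) was dropped, and its adjusted p ranged from 0.00433 to 0.1 over the dropped libraries. It also did not pass with library size only (-0.09, adjusted p = 0.073) or with no filter on low counts (-0.13, adjusted p = 0.0701). ETV4 (chromosome 17, 43527844 to 43579620) shares exonic bases with DHX8 on the opposite strand. DHX8 held 50442 counts over the 9 libraries, against 23910 for ETV4, and the strand setting of the counting is not given in the sources used here, so the ETV4 values are uncertain. DHX8 itself had log2 fold changes of -0.10 with SKP2-1 (adjusted p = 0.125) and 0.03 with SKP2-2 (adjusted p = 0.716).

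ETV5 (ENSG00000244405, chromosome 3, 186046308 to 186110318) was 82.5, 83.1 and 85.9 CPM in SKP2-1 cells, 83.9, 81.7 and 80.5 CPM in SKP2-2 cells, and 81.8, 91.9 and 93.7 CPM in NC cells. NC replicate 1 lay among the knockdown libraries, and the other NC libraries lay above them. The log2 fold change was -0.09 with SKP2-1 (95% interval -0.20 to 0.03, adjusted p = 0.194) and -0.12 with SKP2-2 (-0.23 to -0.01, adjusted p = 0.0778). Without NC replicate 1 both passed the test, at -0.16 (adjusted p = 0.00583) and -0.19 (adjusted p = 0.00167). Without SKP2-2 replicate 1 they also passed, at -0.12 (adjusted p = 0.029) and -0.18 (adjusted p = 0.00842), within 0.00583 to 0.447 for SKP2-1 and 0.00167 to 0.231 for SKP2-2 when single libraries were dropped. Both passed with a filter of 1 CPM in 3 libraries (adjusted p = 0.0327 and 0.0117). The SKP2-1 value also passed with the 2 groups alone (adjusted p = 0.0124), and the SKP2-2 value with RLE scaling (adjusted p = 0.036).

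EGR1, a zinc finger factor of the immediate-early class, is induced within minutes by ERK through serum response factor (SRF) and its ETS partners ELK1, ELK3 and ELK4. The promoter of EGR1 is shown because SRF binds a short element, the CArG box, and because EGR1 had the largest difference between the siRNAs. The 250 bases before its RefSeq start (GRCh38.p14, chr5:138465229-138465478, plus strand) hold 2 CArG boxes, given in capitals, at 105 to 96 and 83 to 74 bases before the start. The RefSeq window of DUSP6 (chr12:89352502-89352751, minus strand), a gene that rose with both siRNAs, is set beside it and holds none. This DUSP6 window lies inside the gene by GENCODE (89347232 to 89353271), so the start used differs between RefSeq and GENCODE. The EGR1 window lies before the GENCODE start of EGR1 (138465490), so the windows are not alike in position.
EGR1: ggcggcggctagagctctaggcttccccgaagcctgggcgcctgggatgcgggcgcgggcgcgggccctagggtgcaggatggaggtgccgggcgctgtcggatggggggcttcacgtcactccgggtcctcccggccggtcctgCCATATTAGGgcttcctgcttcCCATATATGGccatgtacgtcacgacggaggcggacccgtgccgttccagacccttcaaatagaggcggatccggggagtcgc
DUSP6: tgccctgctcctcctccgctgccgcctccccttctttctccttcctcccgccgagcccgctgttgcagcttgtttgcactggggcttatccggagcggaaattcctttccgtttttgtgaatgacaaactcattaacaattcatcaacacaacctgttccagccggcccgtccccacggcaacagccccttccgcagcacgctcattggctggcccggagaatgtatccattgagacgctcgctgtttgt

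RefSeq promoters were found for 6 of the 10 genes (DUSP6, EGR1, PHLDA1, SPRED1, SPRY2 and SPRY4), in 8 windows. A search on both strands found the CArG box in 407 of 35116 promoter windows of the same length, and among the 6 genes in EGR1 alone. The ETS consensus CCGGAAGT (3.42% of all windows), the cyclic AMP response element TGACGTCA (1.65%) and the AP-1 element TGANTCA (6.57%) were in none of the 8 windows. These are matches of letters and not measured binding sites. The elements were searched only in the full forms given, and shorter or variant forms were not counted. By GENCODE coordinates the windows of DUSP6, PHLDA1, SPRED1 and SPRY4 lie inside the genes, as do the SPRY2 windows from 80340109 and 80339660. For the SPRY2 windows from 80341127 and 80340109, the transcribed bases that follow were found in no GENCODE transcript of the gene. Absence of a match therefore holds for these forms and windows only, and not for all upstream sequence of the genes.

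EGR1 (ENSG00000120738, chromosome 5, 138465490 to 138469315) was 15.2, 15.2 and 13.4 CPM in SKP2-1 cells, 3.6, 4.9 and 4.99 CPM in SKP2-2 cells, and 11.9, 10.5 and 10.2 CPM in NC cells. The SKP2-1 libraries were above NC and the SKP2-2 libraries below, with no overlap. These levels rest on 593 to 662 counts in SKP2-1 cells, 146 to 233 in SKP2-2 cells and 425 to 480 in NC cells. EGR1 rose 1.34-fold with SKP2-1 (log2 0.43, SE 0.11, adjusted p = 0.00642) and was 2.41 times lower with SKP2-2 (-1.27, SE 0.12, adjusted p = 1.25e-06). SKP2-2 cells were 3.24 times lower than SKP2-1 cells (-1.69, SE 0.12, adjusted p = 7.16e-08), a difference at least as large in size as that of 98.8% of genes tested.

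All genes with values in this paragraph were named after their values were seen, among them the other EGR genes, FOS, SRF and the SRF partners. EGR3, a paralog of EGR1, was 1.46, 2.08 and 2.07 CPM in SKP2-1 cells, 0.197, 0.249 and 0.407 CPM in SKP2-2 cells, and 0.647, 0.376 and 0.487 CPM in NC cells. EGR3 rose with SKP2-1 (log2 1.91, SE 0.25, adjusted p = 3e-05), did not pass with SKP2-2 (-0.77, SE 0.33, adjusted p = 0.0711), and was lower in SKP2-2 than in SKP2-1 cells (-2.68, adjusted p = 2.57e-06). The SKP2-2 value passed without NC replicate 2 (-0.95, adjusted p = 0.0471) or SKP2-2 replicate 3 (-1.13, adjusted p = 0.0247), within 0.0247 to 0.195 when single libraries were dropped. With no filter on low counts it passed as well (-0.77, adjusted p = 0.0398). EGR2 also rose with SKP2-1 (log2 1.18, adjusted p = 0.00903), did not pass with SKP2-2 (-0.17, adjusted p = 0.744) and was lower in SKP2-2 than in SKP2-1 cells (-1.36, adjusted p = 0.00394), at means of 0.586, 0.226 and 0.255 CPM in SKP2-1, SKP2-2 and NC cells. FOS, another immediate-early gene, was 2.66, 1.74 and 3.08 CPM in the same groups and fell with SKP2-2 (-0.81, adjusted p = 0.000116), but did not pass with SKP2-1 (-0.20, adjusted p = 0.189). Other FOS, JUN and early-response genes went different ways with SKP2-2. FOSL1 rose (0.49, adjusted p = 6.06e-07), IER3 fell (-0.46, adjusted p = 0.0068), and FOSB, JUNB and IER2 did not pass. With SKP2-1, FOSB rose (0.68, adjusted p = 0.000344), FOSL1 fell (-0.18, adjusted p = 0.003), and IER3, JUNB and IER2 did not pass. SRF itself fell with both siRNAs, at log2 fold changes of -0.55 with SKP2-1 (adjusted p = 2.58e-07) and -0.40 with SKP2-2 (adjusted p = 4.05e-06), and so did ELK4 (-0.77, adjusted p = 2.34e-07, and -0.51, adjusted p = 9.62e-06). ELK3 rose with SKP2-2 (0.35, adjusted p = 1.13e-05), and ELK1 did not pass with either siRNA (-0.12, adjusted p = 0.391, and 0.03, adjusted p = 0.836).

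PHLDA1 (ENSG00000139289, chromosome 12, 76025447 to 76033932) had the highest level per kilobase of the 10 genes in SKP2-1 cells. It was 1008.8, 1011 and 1000.6 CPM in SKP2-1 cells, 523.1, 524.8 and 627.7 CPM in SKP2-2 cells, and 625.2, 550.6 and 528.8 CPM in NC cells. The SKP2-1 libraries stood above all others, while the SKP2-2 and NC libraries overlapped, with SKP2-2 replicate 3 and NC replicate 1 the highest of their groups. PHLDA1 rose 1.77-fold with SKP2-1 (log2 0.83, SE 0.077, adjusted p = 3.02e-06), and with SKP2-2 the log2 fold change was -0.02 (95% interval -0.19 to 0.14, adjusted p = 0.819). SKP2-2 cells were 1.8 times lower than SKP2-1 cells (adjusted p = 1.94e-06).

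The genes most alike in pattern were sought for the 4 members with the widest range of group means, by Pearson's r of log2 CPM over the 9 libraries among 11307 protein-coding genes. The 9 libraries share 3 groups, so any gene with the same order of groups scores high, and r is given as a description. For EGR1 these were MLPH (r = 0.993), CCS (0.992) and POP5 (0.991). For SPRY2 they were N4BP1, LGMN and CEMIP, each with r = 0.998, and CEMIP, a hyaluronan-degrading protein, had log2 fold changes of 1.57 with SKP2-1 and -0.59 with SKP2-2. For DUSP5 they were LIPH (0.998), TIMP2 (0.998) and ARHGDIB (0.997). For PHLDA1 they were PLAUR (0.994), the urokinase receptor, TMEM158 (0.993) and FZD8 (0.993), and PLAUR is also on the list of ERK-dependent transcripts. Among the members themselves, r was highest between SPRY4 and PHLDA1 (0.98), SPRY2 and SPRY4 (0.974), and DUSP6 and SPRED1 (0.966), and lowest between DUSP6 and ETV4 (-0.896).

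The rest of the pathway was followed through 5 further lists, from which genes with a mean of at least 2 CPM are named. The counts of each list are to be read beside the shares over all genes tested. Of all genes, 25% rose and 20.5% fell with SKP2-1 (median 0.02), and 25.2% rose and 24.1% fell with SKP2-2 (median 0.03). Of 14 tested genes of the RAS-RAF-MEK-ERK cascade, 2 rose and 2 fell with SKP2-1 (median log2 fold change 0.04), and 4 rose and 4 fell with SKP2-2 (0.07). With SKP2-1 the fallen genes included MRAS (-0.44), a RAS relative of the SHOC2 complex. The risen genes were BRAF (0.35) and SHOC2 (0.25), a scaffold that helps activate RAF. With SKP2-2 the changes included a fall of KSR1 (-0.72), a scaffold of RAF, MEK and ERK, and rises of NRAS (0.64) and MRAS (0.41).

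Of 16 adaptors, exchange factors and GTPase activators of RAS, 7 rose and 3 fell with SKP2-1 (median 0.11), and 5 rose and 6 fell with SKP2-2 (-0.01). With SKP2-1, RASGRP3 (0.57), an exchange factor, GRB2 (0.56), the adaptor that carries SOS to receptors, and SOS2 (0.32), an exchange factor, rose, and GAB1 (-0.45), a docking protein, fell. With SKP2-2, FRS2 (-1.17), the docking protein of FGF receptors, CBL (-0.97), a ubiquitin ligase for receptors, and PTPN11 (-0.74), the phosphatase SHP2, fell, and RASA3 (0.56), a GTPase activator, rose. FRS2 was 60.7, 60.6 and 59.1 CPM in SKP2-1 cells, 26.7, 27.3 and 28.1 CPM in SKP2-2 cells, and 61, 61 and 62.4 CPM in NC cells. Between the siRNAs, SKP2-2 cells were lower in FRS2 (-1.14), CBL (-0.98), GRB2 (-0.86) and PTPN11 (-0.58).

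Of 18 other feedback regulators, 7 rose and 1 fell with SKP2-1 (median 0.22), and 8 rose and 3 fell with SKP2-2 (0.25). Among genes of at least 2 CPM, the largest rises with SKP2-1 were ERRFI1 (1.13), an inhibitor of the EGF receptor also called MIG6, SPRED3 (0.94), DUSP10 (0.93), a phosphatase of p38 and JNK, and LRIG1 (0.36), which promotes loss of EGF receptors. ERRFI1 was 784.1, 777.9 and 798.3 CPM in SKP2-1 cells, 382.6, 368.8 and 365.3 CPM in SKP2-2 cells, and 321.7, 369.3 and 384.3 CPM in NC cells. With SKP2-2, DUSP10 (0.89), the adaptor SH2B3 (0.44) and the ERK phosphatase DUSP7 (0.42) rose, and LRIG1 (-0.85) fell. LRIG1 was 17, 17.4 and 16.6 CPM in SKP2-1 cells, 7.03, 7.55 and 7.48 CPM in SKP2-2 cells, and 12.5, 13.1 and 14.1 CPM in NC cells, the same order of groups as SPRY2 and EGR1.

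Of 39 tested genes on the list of other ERK-dependent transcripts, 15 rose and 8 fell with SKP2-1 (median -0.03), and 12 rose and 11 fell with SKP2-2 (-0.07), close to the medians of all genes. The list also holds SRF, ELK1, ELK3 and ELK4, factors through which ERK acts, and BCL2L11, which ERK represses. Its counts and medians therefore mix genes for which ERK activity would act in different directions. EPHA4 (1.42), an ephrin receptor, TFPI2 (1.08), a protease inhibitor, and PLAUR (0.94) rose with SKP2-1, and IL11 (-1.14), a cytokine, fell. With SKP2-2, IL11 (-1.92), BCL2L11 (-1.17), the death factor BIM that ERK is known to repress, and FOS (-0.81) fell, and SPHK1 (0.79), a sphingosine kinase, rose. Between the siRNAs, 7 of these genes were higher and 20 lower in SKP2-2 cells (median -0.25), beside 25.2% higher, 25.3% lower and a median of 0.03 over all genes tested. BCL2L11 (-1.37), TFPI2 (-1.33) and PLAUR (-0.90) were lower and CCND1 (1.00), encoding cyclin D1, higher. CCND1 was 1269.7, 1239.2 and 1379.9 CPM in SKP2-2 cells and 649.1, 644.6 and 644 CPM in SKP2-1 cells, with NC cells between them at 924, 848.6 and 879.5 CPM.

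Of 11 kinases and effectors downstream of ERK, 1 rose and 6 fell with SKP2-1 (median -0.27), and 2 rose and 6 fell with SKP2-2 (-0.22). RPS6KA5, encoding the kinase MSK1, fell with both, to 7.55, 8.69 and 7.44 CPM in SKP2-1 cells (log2 -1.33) and 5.6, 4.78 and 4.97 CPM in SKP2-2 cells (-1.95), against 19.6, 19.2 and 20.5 CPM in NC cells. EIF4EBP1, a repressor of translation initiation, fell with SKP2-1 (-1.24) and was higher in SKP2-2 than in SKP2-1 cells (1.55). EIF4E (-0.59), the cap-binding factor, and CREB1 (-0.49) also fell with SKP2-1, and RPS6KA2 (-1.06), a ribosomal S6 kinase, with SKP2-2.

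**Figure D4:**
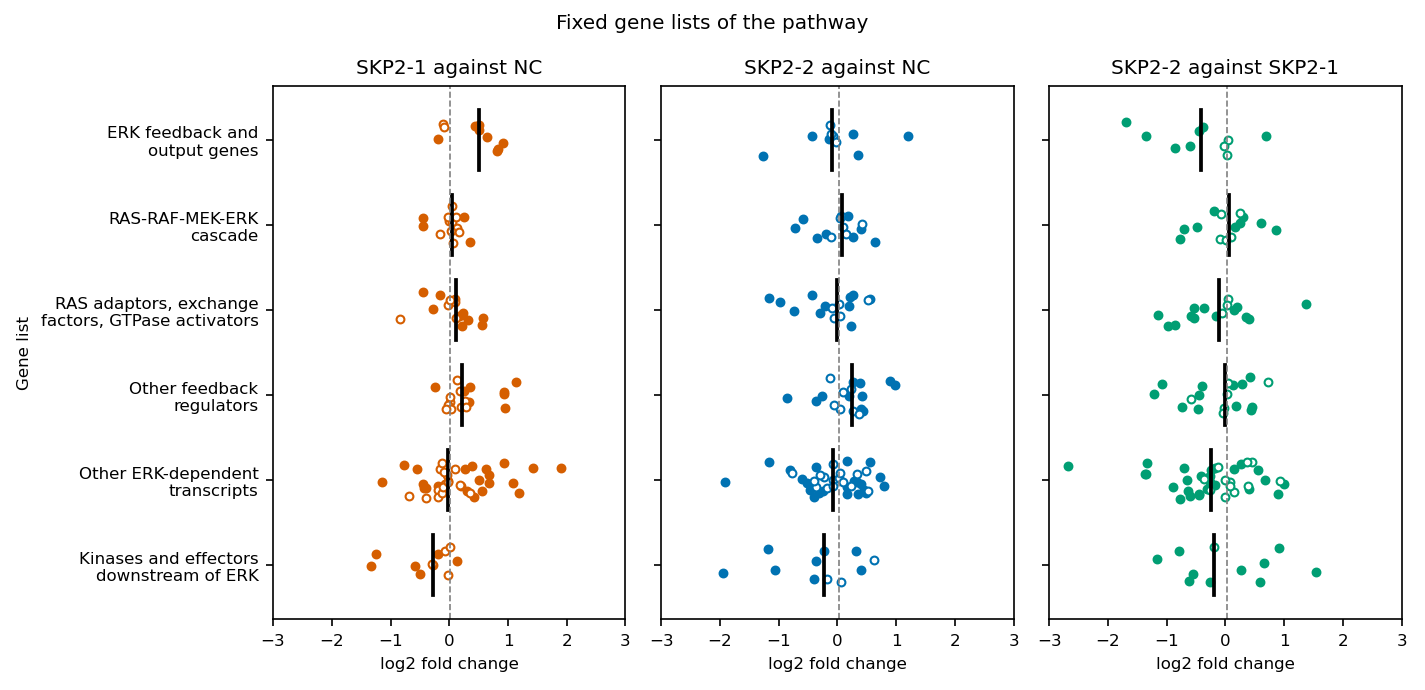
Log2 fold change (horizontal axis) of each tested gene in 6 lists, for SKP2-1 against NC, SKP2-2 against NC and SKP2-2 against SKP2-1; filled points passed at an adjusted p of 0.05, black bars are list medians and the dashed line is the median of all genes. The ERK feedback and output genes have a median of 0.51 with SKP2-1, -0.09 with SKP2-2 and -0.42 between the siRNAs, and each list holds genes on both sides of zero.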

How the data were processed

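The authors deposited unnormalized whole-number read counts for each Ensembl gene, with a separate file for every library. The submitters' processing notes list HTSeq 0.6.1, STAR, Trim Galore 0.4.1, DESeq2 1.16.1 and FastQC 0.11.2; the settings, genome build, annotation and strand used in counting are not given in the sources used here. Summary lines that name no gene were left out of totals; reads outside genes were 5.34% to 5.92% and reads in several genes 3.87% to 3.97%. Symbols came from the supplied name table (57754 identifiers) and GENCODE 29 (521), which also gave coordinates and exon lengths on GRCh38. Promoters are from RefSeq.

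edgeR 4.0.16 in R 4.3.3 was used with TMM scaling, filterByExpr (minimum count 10, minimum total 15) and robust quasi-likelihood F tests, two-sided, over all 9 libraries with group as the only term. P-values were Benjamini-Hochberg adjusted over 16575 genes, threshold 0.05. The SE was derived from the log2 fold change and its F. The fit was also run on simulated data, and the outcome is not given here. Alternatives were RLE scaling, library size only, 2 other filters, DESeq2 1.42.0, the 2 groups alone, a replicate block and left-out libraries. All 10 members were named, with up to 4 genes of at least 2 CPM per list and comparison, those with the largest changes past the threshold; exceptions are stated, and a few genes that the rule or the marker lists name are not reported here. The members and lists were chosen with earlier results of these data known.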

Additional observations from a re-analysis of the deposited data

Results flagged for a closer look

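For 7 of the 10 genes the effects of the siRNAs differed by a direct test of SKP2-2 against SKP2-1 cells (edgeR, adjusted p below 0.05), which is what marked them for a closer look, in a comparison that 50.5% of all genes passed. In SKP2-2 relative to SKP2-1 cells the log2 differences were -1.69 for EGR1, -1.35 for SPRY2, -0.85 for PHLDA1, -0.61 for SPRY4, -0.45 for DUSP6 and -0.38 for SPRED1. DUSP5 differed the other way, by 0.69.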

How the results depend on the processing

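Of the 30 log2 fold changes of the 10 genes, 21 kept their direction and their side of the threshold under all 17 alternatives. The count of genes that fell with SKP2-1, 1 in the report, was 2 with RLE scaling and DESeq2, 3 with a filter of 1 CPM in 3 libraries, with the 2 groups alone and without both NC replicate 1 and SKP2-2 replicate 3, and 1 to 3 over the left-out libraries. The count that fell with SKP2-2, 3 in the report, was 5 with RLE scaling and with the 1 CPM filter, 4 with DESeq2, 2 with library size only and with no filter, where ETV4 did not pass, 6 without both libraries, and 2 to 4 over the left-out libraries. Near zero, PHLDA1 with SKP2-2 turned to 0.02 with library size only and was -0.12 to 0.04 over the left-out libraries. Between the siRNAs, DUSP4 turned to -0.01 without both libraries (-0.02 to 0.07 over the left-out libraries) and ETV5 to 0.00 with library size only. ELK1 with SKP2-2 turned to -0.01 with the 1 CPM filter (-0.08 to 0.12 over the left-out libraries), and EGR2 with SKP2-2 was -0.70 without both libraries and -0.63 to 0.15 over the left-out libraries. SLC39A7 with SKP2-2 passed with library size only (0.13, adjusted p = 0.0138), and with SKP2-1 it was -0.01 with RLE scaling, with DESeq2 and without both libraries, -0.03 with the 1 CPM filter, -0.06 with the 2 groups alone and -0.03 to 0.02 over the left-out libraries. The cause of these changes was not tested. Replicate numbers did not pair the libraries in the same direction: the correlation of same-numbered deviations was above 0.1 in 0 of 9 pairs, and 1 of 9 libraries correlated best with its own number. Between SKP2-2 and NC cells this correlation was -0.47 for replicate 1 and -0.43 for replicate 3, so these libraries deviated from their groups in opposite directions. The cause was not tested. With the replicate number as a block, 6818 genes passed with SKP2-1 (7548 without it), 7501 with SKP2-2 (8181) and 7500 between the siRNAs (8365), and 7 and 3 of the 10 genes still rose with SKP2-1 and SKP2-2. EGR2 (5 to 29 counts per library), EGR3 (8 to 102) and FOS (71 to 137) rest on few counts, which limits their precision. EGR1 had more, at 146 to 662, but the fewest of the 10 genes.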
